A study of Mus musculus with 2 samples.

Results

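Mir338 and Mir3065 are miRNA genes transcribed from opposite strands of the same stretch of mouse chromosome 11, inside the protein-coding gene Aatk. They were chosen by their place at 1 locus and by the reads that both had on their own strand, so the strand columns described here are not independent evidence of expression. The pair makes up 2 of the 2202 annotated miRNA genes in the deposited files. The study sequenced small RNA of under 30 nt from whole adrenal glands of male B6CASTF1/J mice aged 2 months, which are first-generation hybrids of a laboratory strain and a strain derived from castaneus mice. The labels name no treatment, and all libraries belong to 1 group of 2 animals, animal 3 (replicate 1) and animal 4 (replicate 2), labelled as biological replicates. Reads on the strand of an annotated miRNA gene numbered 5752428 in replicate 1 and 3333149 in replicate 2.

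A miRNA is cut from a hairpin precursor, and either arm of the hairpin can give a mature strand of about 22 nt. Bases 2 to 8 of the mature strand, its seed, do most of the pairing with target mRNAs. When both strands of a locus are transcribed, each transcript can fold into a hairpin, and the products can have unlike seeds. In the nervous system miR-338 is best known, together with miR-219, from maturing oligodendrocytes, the myelin-forming glia, and it is also found in neurons. The host gene Aatk encodes apoptosis-associated tyrosine kinase, a protein kinase that is abundant in brain. The adrenal gland joins a steroid-producing cortex to a medulla of chromaffin cells, which descend from the neural crest and receive nerve fibres.

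The hairpins are shown first because the counts depend on how they overlap. Coordinates are those of mm10 with GENCODE M21, and sequences are those of RefSeq for GRCm38.p6, in which both members were matched. Mir338 (ENSMUSG00000065600.1) spans chr11:120014765-120014862 on the minus strand, the strand of Aatk. Mir3065 (ENSMUSG00000105524.1) spans chr11:120014767-120014853 on the plus strand. Capitals mark the annotated mature strands.
Mir338: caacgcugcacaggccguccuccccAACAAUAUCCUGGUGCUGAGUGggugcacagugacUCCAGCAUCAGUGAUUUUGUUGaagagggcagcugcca
Mir3065: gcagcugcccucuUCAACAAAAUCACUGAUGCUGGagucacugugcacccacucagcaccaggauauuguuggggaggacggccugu
All 87 bases of the Mir3065 hairpin are the reverse complement of bases within the 98 of Mir338, which leaves 11 bases that belong to Mir338 alone. RNAfold gave both hairpins a structure with 33 base pairs, at -41.9 kcal/mol for Mir338 and -39.0 kcal/mol for Mir3065.

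The mature strands follow, with the seed in capitals, to show that opposite strands at this locus carry different seeds.
miR-338-5p: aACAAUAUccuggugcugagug
miR-338-3p: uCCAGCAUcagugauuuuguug
miR-3065-5p: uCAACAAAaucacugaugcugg
The annotated miR-338-3p and miR-3065-5p lie over each other, shifted by a base, and are complementary over 21 of their 22 bases. They share no seed with each other or with miR-338-5p. Each of these 3 seeds occurred in 1 of the 1738 mature sequences of the RefSeq table, and each mature sequence occurred in 1 of its 1005 hairpins. Both members are thus without an annotated second copy, unlike many miRNAs whose reads align to several loci and were left out of the gene counts. The deposited counts are per gene and do not tell the arms of a hairpin apart.

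The locus lies in an intron of Aatk (ENSMUSG00000025375.15), which spans chr11:120007313-120047167 on the minus strand. Of 9 annotated Aatk transcripts, 6 cross the pair, and in all 6 it falls in an intron of 1724 bases. No other miRNA gene lay within 50 kb of the pair. The nearest, Gm25948, was 53265 bases away and had 0 counts in both libraries.

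**Figure D1:**
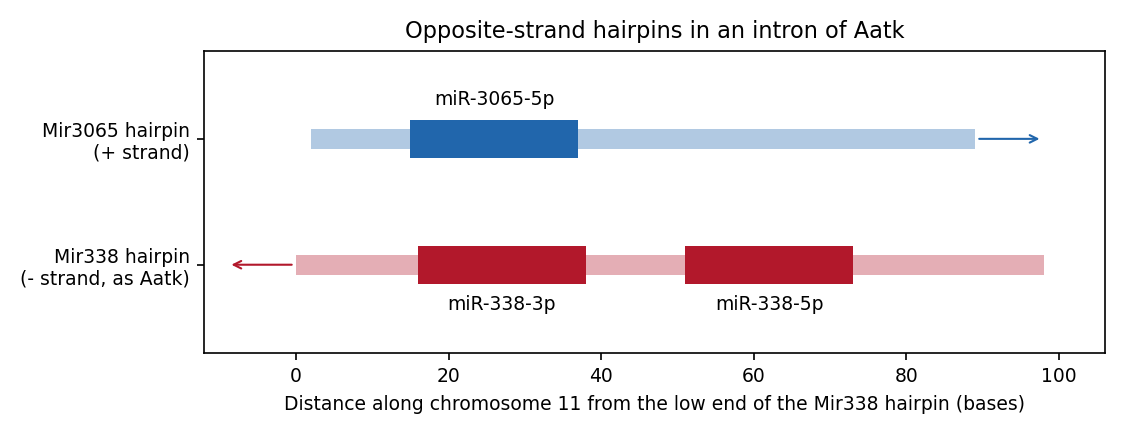
Positions of the Mir338 and Mir3065 hairpins (pale bars) and their annotated mature strands (dark bars), as distance in bases from the low end of the Mir338 hairpin, with arrows for the direction of transcription. The Mir3065 hairpin of 87 bases lies wholly within the 98 bases of Mir338, and miR-3065-5p covers the place of miR-338-3p.

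Nearly all reads of the locus came from the Mir338 strand in both animals. Mir338 had 1745 reads on its own strand in replicate 1 and 1984 in replicate 2. Mir3065 had 32 reads on its own strand in replicate 1 and 11 in replicate 2. Mir338 was thus the higher member by far in each library, and Mir3065 was low but present in both. Of 1777 reads at the locus in replicate 1, 98.2% lay on the Mir338 strand (exact 95% Clopper-Pearson interval 97.5 to 98.8). Of 1995 reads in replicate 2, 99.4% did (99.0 to 99.7). The share of Mir3065 was 1.80% in replicate 1 (1.23 to 2.53) and 0.551% in replicate 2 (0.276 to 0.984), and these intervals do not overlap. Intervals here cover counting error alone, and PCR copies of a molecule are counted as separate reads.

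The 3 count columns of the pair mirrored each other. The opposite-strand count of Mir338, 32 in replicate 1 and 11 in replicate 2, equalled the gene-strand count of Mir3065, and the opposite-strand count of Mir3065, 1745 and 1984, equalled the gene-strand count of Mir338. Each number was thus the same set of reads seen from either gene, and the opposite-strand column adds no evidence of its own. In the column that ignores strand both genes had 0 reads in both libraries, and the reads that overlap genes on both strands stood in its row of ambiguous reads. With that row, the total of uniquely aligned reads was the same in both kinds of column, 6847622 in replicate 1 and 4410362 in replicate 2. The pair's reads came to 0.177% and 0.422% of the 1006147 and 473222 ambiguous reads.

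**Figure D2:**
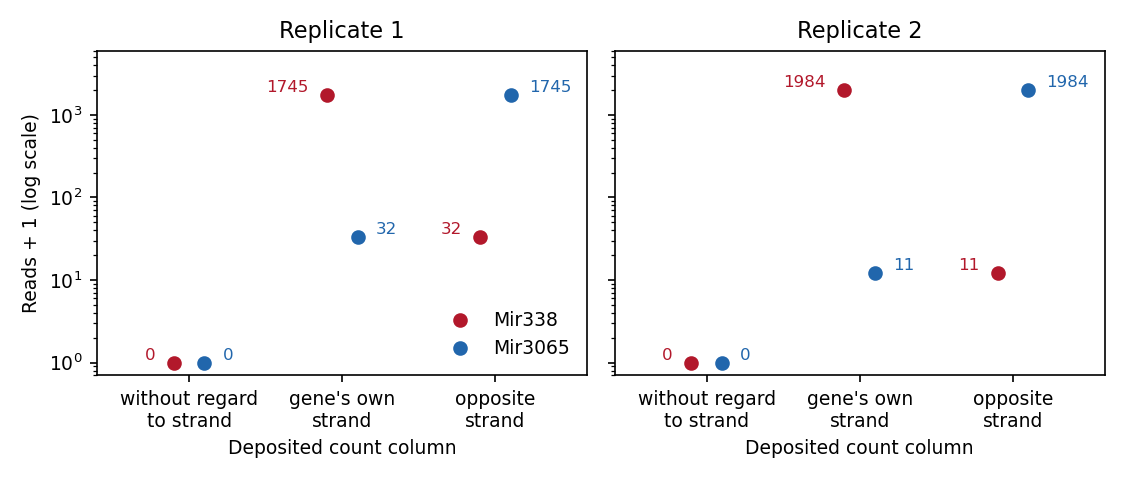
Reads of Mir338 (red) and Mir3065 (blue) in the 3 deposited count columns of each library, drawn as reads + 1 on a log scale with the count beside each point. Without regard to strand both genes sit at 0, and the gene-strand value of each gene is the opposite-strand value of the other.

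Mir338 was a gene of middling abundance in the adrenal gland. In CPM, reads per 1000000 reads at miRNA genes, it had 303 in replicate 1 (95% interval 289 to 318) and 595 in replicate 2 (569 to 622). Its mean was 449 ± 206 CPM (SD, n = 2), and it ranked 124 in replicate 1 and 98 in replicate 2 among all miRNA genes. Mir3065 had 5.56 CPM in replicate 1 (3.81 to 7.85) and 3.30 CPM in replicate 2 (1.65 to 5.91), with a mean of 4.43 ± 1.60 CPM (SD, n = 2). It ranked 321 and 353, towards the end of the 372 genes with 2 CPM or more in both libraries. The limit that 0 reads allow was 0.522 CPM for replicate 1 and 0.900 CPM for replicate 2. Mir3065 lay above it in both, which is no separate evidence, as it was chosen for having reads on its own strand.

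The genes most like each member were found by Euclidean distance of log2(CPM + 1) over the 2 libraries. For Mir338 these were Mir299a (distance 0.28), Mir434 (0.29) and Mir376c (0.31), all 3 on chromosome 12. Mir299a had 254 CPM in replicate 1 and 639 in replicate 2, Mir434 had 253 and 545, and Mir376c had 367 and 536, so each was higher in replicate 2 as Mir338 was. For Mir3065 the nearest genes were Mir452 (0.18), Mir215 (0.19) and Mir1930 (0.27). Mir452 had 6.26 and 3.00 CPM, Mir215 had 4.87 and 3.60 CPM, and Mir1930 had 6.78 and 3.00 CPM. With 2 libraries this likeness rests on 2 values a gene.

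Between the animals Mir338 differed beyond counting error, and Mir3065 did not pass the test. Mir338 was lower in replicate 1, with a log2 ratio of -0.77 (counting SE 0.05) after TMM scaling, a 1.71-fold difference. The exact binomial test called it, with a Benjamini-Hochberg adjusted p of 3.21e-59 over the 389 genes with 10 or more counts in mean. Mir3065 had a log2 ratio of 0.91 (counting SE 0.50), of the other sign, with an adjusted p of 0.0970 in the exact test. This test sets the reads of 1 library against those of 1 other, and compares those libraries, not conditions. It called 59.6% of all genes tested, 28.8% lower and 30.8% higher in replicate 1, so a call for 1 of the 2 members is no more than this background. Among the 389 genes 12.9% had a log2 ratio at or below that of Mir338, and 9.25% had one at or above that of Mir3065. Compared with scaling by library totals, TMM raised every log2 ratio by 0.20. Library totals gave 85 genes called higher and 170 lower in replicate 1, where TMM gave 120 and 112, and neither member changed direction. With the common dispersion of the same 2 libraries, a biological coefficient of variation of 0.361, edgeR's exact test gave an adjusted p of 1 for both members and called 1.03% of genes. The differences between these libraries set that dispersion, so the edgeR result cannot show that a gene did not differ. In whole tissue, fewer cells of a type and less RNA per cell cannot be told apart.

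**Figure D3:**
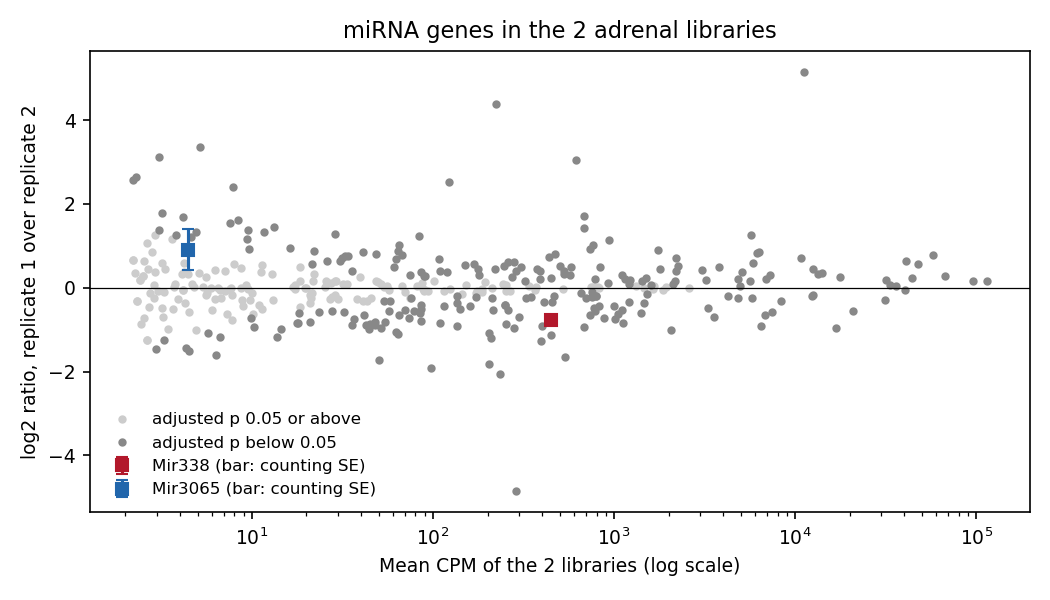
Log2 ratio of replicate 1 over replicate 2 after TMM scaling against mean CPM (log scale) for the 389 miRNA genes tested, each point 1 gene, dark grey where the exact binomial test gave an adjusted p below 0.05. Mir338 (red, -0.77) lies below 0 and Mir3065 (blue, 0.91) above it, with bars of 1 counting SE, and many genes of similar level lie as far from 0.

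The balance of the pair was compared between the animals without any scaling, as both members were counted in the same library. Mir338 exceeded Mir3065 54.5-fold in replicate 1 (95% interval 38.5 to 80.0) and 180-fold in replicate 2 (101 to 362). The ratio was 3.31 times as large in replicate 2 (approximate 95% interval 1.66 to 6.58), and the 2 by 2 table of reads gave p = 0.000323 in a two-sided Fisher exact test. The value rests on 43 Mir3065 reads, and with 1 library on each side it has no replicate check. Spread between animals does not enter this test.

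In most other miRNA genes arranged in this way the lower member had few reads or none. GENCODE M21 held 32 pairs of miRNA genes that overlap on opposite strands, and in 25 of them the higher member had 10 or more reads in mean. In 12 of these 25 the lower member had 0 reads in both libraries. In 4 of the 32 pairs both members had 10 or more reads in mean: Mir337 with Mir3544, Mir24-1 with Mir3074-1, Mir338 with Mir3065, and Mir486 with Mir3107. The mirrored columns described above were found in 18 of the 25 pairs.

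Beside the 3.31-fold shift at the Mir338 locus, the other 3 pairs with 10 or more reads in mean for both members had close ratios in the animals. Mir337 exceeded Mir3544 122-fold in replicate 1 and 111-fold in replicate 2. Mir24-1 exceeded Mir3074-1 7.69-fold and 7.07-fold, where reads of miR-24 placed at more than 1 locus are missing from the counts. Mir486, an erythroid miRNA gene, exceeded Mir3107 23.2-fold and 23.0-fold in reads placed at 1 locus. The level of Mir486 itself was 113 CPM in the first animal and 55.2 CPM in the other. Any reads of this pair placed at more than 1 locus are missing from these values. The fold between libraries, replicate 2 over replicate 1, was 0.912 for Mir337 with Mir3544 (95% interval 0.629 to 1.32), 0.919 for Mir24-1 with Mir3074-1 (0.550 to 1.53) and 0.991 for Mir486 with Mir3107 (0.444 to 2.21). Adjusted over the 4 pairs, the Fisher exact test gave p = 0.00129 for Mir338 with Mir3065 and p = 1 for each of the other 3. Whether the change at the Mir338 locus differs from the changes in the other pairs was not tested. Below the limit of 10 reads, ratios could move far between the libraries, and these pairs were not tested. Mir126a, with 397804 reads in replicate 1 and 217098 in replicate 2, had an opposite partner, Mir126b, with 1 and 8 reads. The ratio of Mir126a over Mir126b was thus 397804 and 27137. Mir1b, with 5 and 9 reads, over Mir1a-2, with 7 and 1 reads, gave 0.714 and 9.

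**Figure D4:**
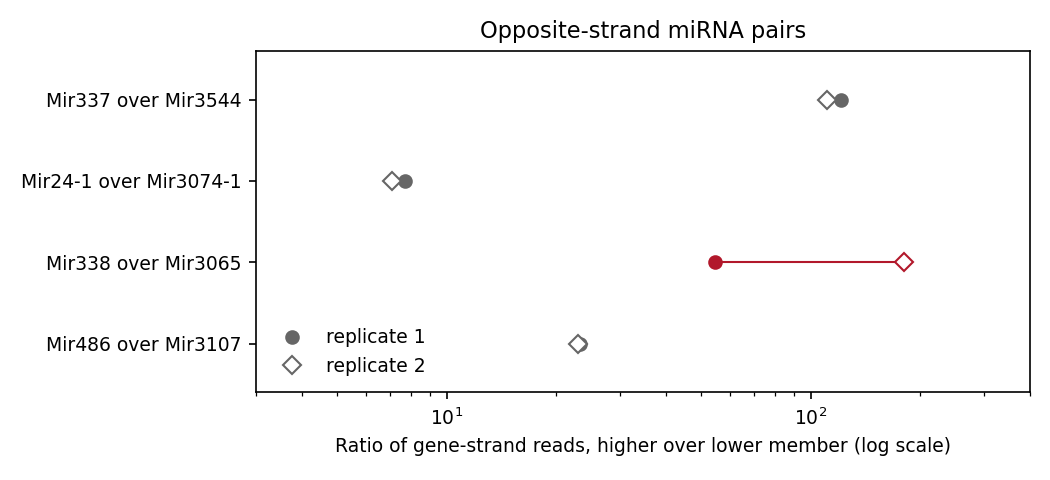
Gene-strand reads of the higher over the lower member (log scale) in the 4 opposite-strand pairs whose members both had 10 or more reads in mean, in replicate 1 (filled circles) and replicate 2 (open diamonds). Mir338 over Mir3065 moved from 54.5 to 180, while the points of the other 3 pairs lie close together.

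Reads on the opposite strand were rare at miRNA genes with no annotated partner, which gives a background for the Mir3065 reads. There were 236 such genes with 100 or more reads in mean, and 222 of them had 0 opposite-strand reads in replicate 1 and 225 in replicate 2. The share of opposite-strand reads at the Mir338 locus, 1.80% and 0.551%, was higher than at 233 of the 236 genes in each library. The exceptions in replicate 1 were Mir345 (4.35%), Mir34b (3.80%) and Mir203 (3.41%), and the same 3 genes were above the locus in replicate 2, with 0.613%, 3.12% and 4.73%. Mir708 followed closely in replicate 2 at 0.536%. This is a description, as the members were selected on having reads on both strands.

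**Figure D5:**
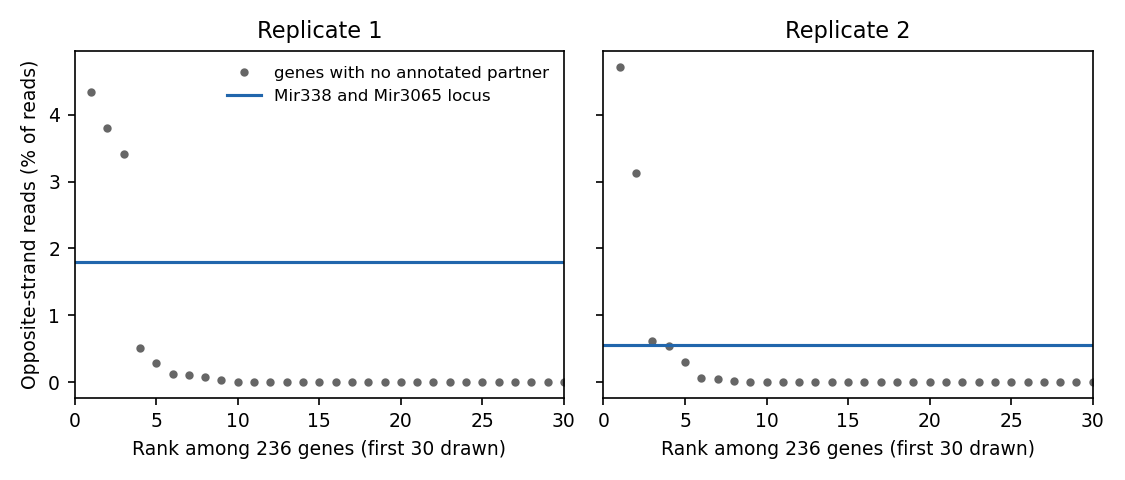
Share of opposite-strand reads, in percent, at the 30 highest of 236 miRNA genes with no annotated opposite partner (points, ranked in each library) and at the Mir338 and Mir3065 locus (blue line). The line lies at 1.80% in replicate 1 and 0.551% in replicate 2, with 3 genes above it in each.

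Of the other genes in the list for oligodendrocytes and Schwann cells, none came near Mir338. Mir219a-1, whose product works with miR-338 in oligodendrocyte maturation, had 95 reads in replicate 1 and 60 in replicate 2, or 16.5 and 18.0 CPM. Mir338 exceeded it 18.4-fold and 33.1-fold. Mir219a-2 had 9 and 2 reads. These levels are uncertain, as miR-219a-5p occurs in 2 hairpins and reads placed at more than 1 locus are missing from the counts. The genes annotated on the strand opposite to them were close to absent, with Mir219c at 0 and 1 reads and Mir219b at 0 in both libraries. Mir3065 had more reads than either, but it was chosen for having reads, and Mir219a-1 and Mir219a-2 had far fewer reads than Mir338. As a share of the reads at its locus, Mir219c had 0% in replicate 1 and 1.64% in replicate 2, the latter on 1 read. Mir3065 had 1.80% and 0.551%. Of the 6 genes 3 were tested, Mir338, Mir3065 and Mir219a-1, and Mir338 was the 1 called, where the exact binomial test called 59.6% of all genes. Mir219a-1 had a log2 ratio of 0.07 (counting SE 0.24, exact binomial adjusted p = 0.881). The median log2 ratio of the 3 tested genes was 0.07, beside 0.01 over all 389. As both members are among the 3, neither this median nor the call is an outside comparison.

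Neuronal genes were a list of 15, of which 8 reached 2 CPM in replicate 1 and in replicate 2 and 5 had 0 reads in both. Mir338 stood in the range of its leading members. Mir134, a neuronal miRNA of an imprinted cluster, was higher, at 1147 and 1060 CPM in replicates 1 and 2. Mir137, a regulator of neuronal differentiation, had 405 and 530 CPM. Mir338 lay below Mir137 in replicate 1 (0.750-fold) and above it in replicate 2 (1.12-fold), so their order was not settled. Mir138-1 (92.5 and 87.3 CPM) and Mir129-2 (56.9 and 114 CPM) had lower counts than Mir338 in both libraries. Their order is uncertain, as miR-138-5p and miR-129-5p each occur in 2 hairpins. The 5 genes at 0 were Mir124a-1, Mir124a-2, Mir124a-3, Mir9-1 and Mir9-2, and these counts of 0 do not show absence. The products of Mir9 each occur in 3 hairpins, the Mir124a genes are copies of 1 miRNA, and reads placed at more than 1 locus are missing from the counts. Of the 8 tested neuronal genes 4 were called lower in replicate 1 by the exact binomial test and 2 higher, where the test called 28.8% of all genes lower and 30.8% higher. Mir129-2 (log2 ratio -0.80), Mir153 (-0.81), Mir128-1 (-0.99) and Mir137 (-0.19) were the lower genes, and Mir134 (0.31) and Mir138-1 (0.28) the higher ones. The list had a median of -0.35, beside 0.01 over all genes tested, and edgeR's exact test gave an adjusted p of 1 for each of the 8. As its dispersion came from the libraries compared, edgeR's test cannot show that these genes did not differ. The part of neurons or glia in the level of Mir338 was not tested.

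Of the gland's own marker genes, Mir375, Mir7b and Mir132 were above Mir338 in both libraries and 4 others were below it. Mir375, a miRNA gene of endocrine cells, exceeded Mir338 227-fold in replicate 1 and 77.7-fold in replicate 2, and Mir7b exceeded it 12.1-fold and 8.10-fold. Mir132, from the list for steroid-producing tissue, exceeded Mir338 4.67-fold and 2.43-fold, while Mir212 (36.7 and 87.6 CPM) and Mir202 (8.69 and 13.2 CPM) of that list were lower than Mir338. Mir7-1 (240 and 290 CPM) and Mir7-2 (117 and 101 CPM) were lower as well, and as copied genes they miss reads placed at more than 1 locus. In lists for other cell types, Mir126a of endothelium had 69154 and 65133 CPM and Mir143 of smooth muscle 31774 and 31884 CPM. In the white blood cell list, Mir150 (688 and 901 CPM) lay above Mir338 in both libraries and Mir223 (36.7 and 159 CPM) below it in both. Mir142, with 391 CPM in each library, and Mir155 (318 and 326 CPM) lay above Mir338 in replicate 1 and below it in replicate 2. The epithelial list summed to 58.2 and 50.7 CPM, less than Mir338 alone.

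The libraries also differed in genes of other tissues, in both directions. The sum of the erythroid list was 22813 CPM in replicate 1 against 901 CPM in replicate 2, and the list for skeletal muscle and heart to 718 and 454 CPM. Within the muscle list Mir499 (423 and 23.1 CPM), Mir208b (204 and 40.8 CPM) and Mir208a (9.39 and 0.900 CPM) were higher in replicate 1. The remaining gene, Mir206 of skeletal muscle, was higher in replicate 2, with 81.7 and 389 CPM. Mir122, the main miRNA of liver, was higher in replicate 2 too, with 690 and 1331 CPM, and Mir338 was 0.439 and 0.447 of it. The part of these differences, in either direction, in the lower Mir338 level of replicate 1 was not tested.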

How the data were processed

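Small RNA of 2 adrenal libraries was sequenced by the authors. The deposited values are raw counts of reads for each miRNA gene of mm10 and GENCODE M21, per the files that describe each library. For the aligner and the trimming, the sources used here give nothing. Of the 3 count columns in each deposited table, the values show reads without regard to strand, on the gene's strand and on the opposite strand. The 4 leading rows name no gene and were left out of library sizes. They held the remaining reads, since 33.8% of 17000342 reads in replicate 1 and 31.0% of 10752051 in replicate 2 were counted at miRNA genes. Reads aligned to several loci (26.2% and 28.8%) were not counted at genes.

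CPM are gene-strand counts per 1000000 counts at miRNA genes. A quasi-likelihood test needs more than 1 group. Instead, the libraries were compared by a two-sided exact binomial test per gene with TMM effective library sizes, Benjamini-Hochberg adjustment over 389 genes and a threshold of 0.05, and log2 ratios had 0.5 counts added. This binomial test was first checked on simulated libraries with counting error alone. They had no spread between animals, so the check does not cover that spread. Pair ratios were compared by Fisher's exact test. That test was planned for Mir338 with Mir3065, and was run on the other 3 pairs after their ratios were seen. Alternatives changed the scaling, the denominator, the strand column, the pseudocount, the filter on low counts and the test, or left out 1 library. Genes named were the members, both genes of opposite-strand pairs with 10 or more reads in mean, the 3 nearest in level to each member and the leading members of the lists. Mir126b, Mir1b, Mir1a-2, Mir345, Mir34b, Mir203 and Mir708 were named after their values were seen. The members and lists were chosen with earlier results of these data known. Hairpins were folded with ViennaRNA 2.7.2. Other tools were edgeR 4.0.16 and DESeq2 1.42.0 in R 4.3.3, and SciPy 1.17.1, matplotlib 3.10.9, pandas 2.3.3 and NumPy 2.4.6 in Python 3.11.15.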

Additional observations from a re-analysis of the deposited data

How the results depend on the processing

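The log2 ratio of Mir338 ranged from -0.97 to -0.77 over 8 alternatives and was called in 7. Counts added for log2 ratios do not enter the binomial test, and the filter on low counts changes only its adjustment. Calls under those alternatives are thus the main call repeated and are no check of it. With edgeR's exact test and the common dispersion it was -0.77 with an adjusted p of 1, and 4 genes were called in place of 232. That dispersion came from the libraries compared, so the edgeR result does not weigh against the main call. Mir3065 ranged from 0.71 to 0.95 and was called in none of 8 (adjusted p 0.0970 to 1). Without regard to strand both members had 0 CPM, so no log2 ratio and no pair ratio could be computed. Per 1000000 of all reads, Mir338 came to 144 and Mir3065 to 1.45. The number of opposite-strand pairs with both members counted was 8 at 1 or more reads in mean and 0 at 100 or more. Leaving out 1 library gave pair ratios of 54.5 and 180 and left no comparison between libraries. Depth limits the precision of Mir3065, which had 11 reads in replicate 2.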
